A study of Homo sapiens with 4 samples.

Results

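The GIMAP genes encode a family of GTPases made mainly in lymphocytes. They were followed here in Jurkat cells, an established human line of T-cell acute lymphoblastic leukaemia (T-ALL), after exposure to GNE987. The 7 members were the protein-coding rows of the deposited table named GIMAP1, GIMAP2, GIMAP4, GIMAP5, GIMAP6, GIMAP7 and GIMAP8, out of 26733 genes with a row, of which 16197 were protein-coding. The family was picked with the differences between treated and untreated cells already known, so its fold changes, and the counts of members past the threshold, are a description and test nothing; no p-value is printed for a member. GNE987 is a chimeric degrader: one end binds the bromodomains of BET proteins and the other recruits the E3 ligase VHL. The GNE987 group was 2 libraries of Jurkat cells given the compound at 25 nmol (the labels name no volume) for 24 h, and the untreated group was 2 libraries of the same line without it. No vehicle is named for the untreated cells, and both groups are the same single line. Whether replicates were grown apart is not stated, and a p-value here reflects only library-to-library spread, which may be technical.

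GIMAP proteins bind guanine nucleotides through a domain called AIG1, and several of them sit on the membranes of lysosomes, the Golgi or lipid droplets. They are best known for keeping lymphocytes alive: rats and mice that lack Gimap5 lose T cells, and in mice Gimap1 is needed for mature T and B cells. In T-ALL an enhancer in the human gene cluster has been described as bound by TAL1 and its partner factors.

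The 7 genes lay side by side in 299.4 kb at chr7:150450630-150750033 (GRCh38, GENCODE release 29). The order from the lower coordinate was GIMAP8, GIMAP7, GIMAP4, GIMAP6, GIMAP2, GIMAP1 and GIMAP5. GIMAP6 was the only member on the minus strand. GIMAP1 and GIMAP5 were annotated with shared exonic bases, and both shared more with GIMAP1-GIMAP5, a readthrough gene that joins them. Of the 6031 exonic bases of GIMAP5, 64.4% belonged to it alone, against 88.7% of the 4846 bases of GIMAP1. The other 5 members shared none. Counts of GIMAP1 and GIMAP5 are therefore less certain than the rest.

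The start regions of the genes are shown because the members lie together and because these windows hold runs of letters that some members share. RefSeq windows (GRCh38.p14) of the 250 bases before each start matched all 7 members. RefSeq and GENCODE starts differ, so parts of these windows are exonic in GENCODE: 250 bases of the GIMAP6 window, 113 of that of GIMAP4, 70 of GIMAP5, 56 of GIMAP1, 42 of GIMAP7, 9 of GIMAP2 and 0 of GIMAP8. The RefSeq start of GIMAP5 lies 15165 bases from its GENCODE start. They were searched on both strands for CAGGAAG and GGAAGT, letters that contain the GGAA core bound by ETS factors. This choice was made after the windows had been read, and it carries no test. CAGGAAG occurred in 5 of 7 windows (GIMAP7, GIMAP6, GIMAP2, GIMAP1 and GIMAP5) and in 10.5% of 34943 windows of all genes. GGAAGT occurred in 4 of 7 (GIMAP8, GIMAP4, GIMAP6 and GIMAP5) and in 19.5% of all windows. Either form was present in 7 of 7 and in 26.0% of all. The forms overlap by up to 5 letters and can lie on the same bases, as they do once before GIMAP5. A 30-base stretch around each match is given on the strand that reads GGAA, with the matched letters in capitals.
GIMAP8, chr7:150450574-150450603, plus strand: ggacttgtgagaGGAAGTcctaaaggccac
GIMAP7, chr7:150514814-150514843, minus strand: aacctctcagtCAGGAAGctcaggctgggt
GIMAP4, chr7:150567341-150567370, minus strand: caggagaagagaGGAAGTgaggggaggagc
GIMAP6, chr7:150632432-150632461, plus strand: ctttgcagcctcGGAAGTagaaaaagggag
GIMAP6, chr7:150632391-150632420, minus strand: actcttctgactCAGGAAGgccggtgctcc
GIMAP2, chr7:150685638-150685667, plus strand: ttcattagcagtCAGGAAGctcaggaagat
GIMAP2, chr7:150685647-150685676, plus strand: agtcaggaagctCAGGAAGattcaagagag
GIMAP1, chr7:150716547-150716576, minus strand: acttcagaaatCAGGAAGctcagggtgggc
GIMAP5, chr7:150737216-150737245, plus strand: ttttctgaacttGGAAGTgggagagtctgt
GIMAP5, chr7:150737341-150737370, plus strand: caggctcatgaCAGGAAGTgacccgttaag

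The longest run of letters common to the windows of GIMAP7, GIMAP2 and GIMAP1 had 14 letters, and these take in a CAGGAAG match of each gene.
shared run: tcaggaagctcagg
It began 52 bases before the RefSeq start of GIMAP7, 57 before that of GIMAP2 and 60 before that of GIMAP1. It read along the gene in GIMAP2 and against it in GIMAP7 and GIMAP1. The GENCODE starts lie 42, 9 and 56 bases before these RefSeq starts, so part of the run is exonic in GIMAP7 and GIMAP1. The CAGGAAG match of GIMAP1 and the matches of GIMAP4 and GIMAP6 lie wholly in GENCODE exons, and that of GIMAP7 in part. The GIMAP5 window is partly exonic too, and whether its matches lie in that part was not looked up. Of the 34943 windows 3 held it, those of these 3 genes, and the readthrough gene has the same window as GIMAP1. Since the run was taken from these 3 windows, that they hold it was fixed beforehand and tests nothing. In GIMAP2 a second CAGGAAG followed after the letters ct, as the 241 bases before its GENCODE start show.
GIMAP2, chr7:150685456-150685696, plus strand: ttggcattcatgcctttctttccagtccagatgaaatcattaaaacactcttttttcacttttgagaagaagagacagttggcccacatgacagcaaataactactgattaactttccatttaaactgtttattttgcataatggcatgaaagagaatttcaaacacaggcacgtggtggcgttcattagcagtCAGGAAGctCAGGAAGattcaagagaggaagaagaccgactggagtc
Letters of other T-ALL factors were searched too. The E-box CAGNTG was in 4 of 7 windows and 42.5% of all, the MYB form AACNGT in 2 of 7 and 18.6%, and the RUNX form TGTGGT and the GATA form AGATAA in 0 of 7, against 11% and 9.2% of all. A match or its absence describes only these letters in these windows.

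Total counts were 16041022 to 17024157 in the GNE987 libraries and 18441248 to 18938465 in the untreated ones, so that 3 counts equal 0.197 and 0.217 CPM in the GNE987 libraries and 0.135 and 0.148 CPM in the untreated ones (CPM are counts scaled to a fixed, TMM-adjusted library total). The GNE987 pair differed with a chi-square per degree of freedom of 4.97 over genes, and the untreated pair, which lay further apart, with 38. All 12 T-cell markers looked up were detected, and their sum was 2490 and 2630 CPM in the GNE987 libraries and 3820 and 3680 CPM in the untreated ones. By the edgeR test described below 8 of the 12 were called lower and 1 higher, against 37.2% and 34.4% of all genes tested. Their log2 fold changes, GNE987 over untreated, ran from -4.06 for CD2 to 0.55 for CD7. CD3E and TRBC1, neither of them called, gave much of the sum, at 717 and 675 CPM in GNE987 replicate 1. Myeloid markers had a row in 6 of 7 cases, none at 0 throughout. They summed to 142 and 147 CPM in the GNE987 libraries and to 0.763 and 29.9 CPM in untreated replicates 1 and 2. MPO and ITGAM, neither of them called, gave most of the GNE987 sums, at 72.6 and 43.1 CPM in GNE987 replicate 1. Of 5 tested, 3 were called higher and 0 lower, against 34.4% and 37.2% of all genes tested. Endothelial markers, of a further cell type known to make GIMAP proteins, had a row in 3 of 5 cases and summed to 33.6 and 37.9 CPM with GNE987 and to 96.6 and 76.0 CPM without. Nearly all of that was PECAM1, which T cells also make; VWF had at most 4 counts in a library. In each of these sums, and in those of the other cell types looked up, untreated replicate 2 lay nearer to the GNE987 libraries than untreated replicate 1 did. The untreated means take this shift in, and its source was not tested. The part of these markers in the GIMAP differences was not tested. In bulk RNA, fewer cells that make a transcript and less of it per cell cannot be told apart. All levels, fold changes and percentages left given here are relative to the other RNA of a library. A change in total RNA per cell would not show in them.

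All 7 GIMAP genes were lower with GNE987. The summed level of the family was 23.2 and 23.2 CPM in the GNE987 libraries, against 297 and 238 CPM in the untreated ones, so 8.66% was left. Both GNE987 libraries lay below both untreated libraries for 7 of 7 members, as they did for 46.6% of the 15910 genes tested. In the fit across all genes (edgeR quasi-likelihood test, adjusted p under 0.05) 7 of 7 members were called lower, and so were 37.2% of all genes tested; 71.6% were called in either direction. Over all genes tested 5920 were called lower and 5467 higher, and with library size alone 7164 lower and 4103 higher. Since the family was chosen on this contrast, nothing is read from these counts. The log2 fold changes, GNE987 over untreated, ran from -6.28 to -2.55 with a median of -3.23, and the median of all genes tested was -0.03.

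The members are described by what their proteins are known for, beginning with the pair of lipid droplet proteins. GIMAP7 stimulates the GTPase activity of GIMAP2, which coats lipid droplets in Jurkat cells. GIMAP7 had 7.09 and 9.57 CPM with GNE987, against 87.6 and 68.4 CPM without (108 and 132 counts, against 1952 and 1386). GIMAP2 had 10 and 8.99 CPM with GNE987, against 60.4 and 51.0 CPM without (153 and 124 counts, against 1345 and 1032). For both genes the treated libraries lay far below the untreated ones. Their log2 fold changes were -3.23 ± 0.22 for GIMAP7 and -2.55 ± 0.15 for GIMAP2 (SE).

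GIMAP1, a Golgi protein that mouse lymphocytes need to mature, had 3.41 and 3.26 CPM with GNE987, against 22.9 and 17.9 CPM without. GIMAP5, a lysosomal membrane protein linked to lymphocyte survival, had 0.328 and 0.362 CPM with GNE987, against 6.02 and 5.68 CPM without. Neighbours on the chromosome and sharing exons, they differed in how much was left. GIMAP1 kept 16.4% of its untreated mean and GIMAP5 5.91%, with log2 fold changes of -2.61 ± 0.21 and -4.06 ± 0.35. GIMAP5 rested on 5 counts in each GNE987 library, against 134 and 115 in the untreated libraries. Its pooled ratio was 0.0588 of the untreated level, with an exact 95% interval for counting error alone of 0.0279 to 0.11. The readthrough GIMAP1-GIMAP5, with no exonic base of its own, had 0 and 3 counts with GNE987 and 0 and 0 without.

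GIMAP6 and GIMAP4 had the lowest fold changes of the family. GIMAP6, which binds the autophagy protein GABARAPL2, had 1.84 and 0.797 CPM with GNE987, against 102 and 82.6 CPM without (28 and 11 counts, against 2282 and 1673). The groups lay far apart, and 1.42% of its level was left, a log2 fold change of -6.11 ± 0.34. Among all genes tested 58, or 0.365%, had a log2 fold change as low as that or lower. GIMAP4, which in mice speeds the death of T cells, had 0.197 and 0.145 CPM with GNE987, against 16.5 and 11.3 CPM without. Only 3 and 2 reads were counted in the GNE987 libraries, against 368 and 229 in the untreated ones. Its log2 fold change was -6.28 ± 0.41, and its pooled ratio was 0.0123 of the untreated level (exact 95% interval 0.00397 to 0.0288, counting error only). The 2 genes neighbour each other in the middle of the cluster and are transcribed from opposite strands.

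GIMAP8, a longer protein with several GTPase domains, was scarce in every library. It had 4 and 1 counts with GNE987 (0.263 and 0.0725 CPM), against 20 and 29 counts without (0.898 and 1.43 CPM). The groups did not overlap, but the pooled ratio of 0.149 had an interval of 0.0465 to 0.373. GIMAP8 was the only member higher in untreated replicate 2 than in untreated replicate 1, by a ratio of 1.59; the ratios of the other 6 were 0.684 to 0.944. Its log2 fold change was -2.71 ± 0.70, -3.89 without GNE987 replicate 1 and -2.12 without GNE987 replicate 2. GIMAP8 did not pass the threshold without either of these libraries, with DESeq2 or with the replicate number as a block. The share of all genes tested called lower was 32.1% with DESeq2, 33.1% with the block, and 25.2% and 25.6% without GNE987 replicates 1 and 2. In the settings where all members were called it was 35.1% with RLE scaling, 32.6% with upper-quartile scaling, 45.0% with library size alone, 23.6% with no filter, 37.3% with robust estimation, and 38.9% and 40.1% without untreated replicates 1 and 2. With at least 10 CPM asked for, which drops GIMAP5 and GIMAP8, it was 41.8%. GIMAP3P, a pseudogene in humans whose mouse counterpart is a working gene, had 5 and 0 counts with GNE987 and 7 and 3 without, too few to test.

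**Figure D1:**
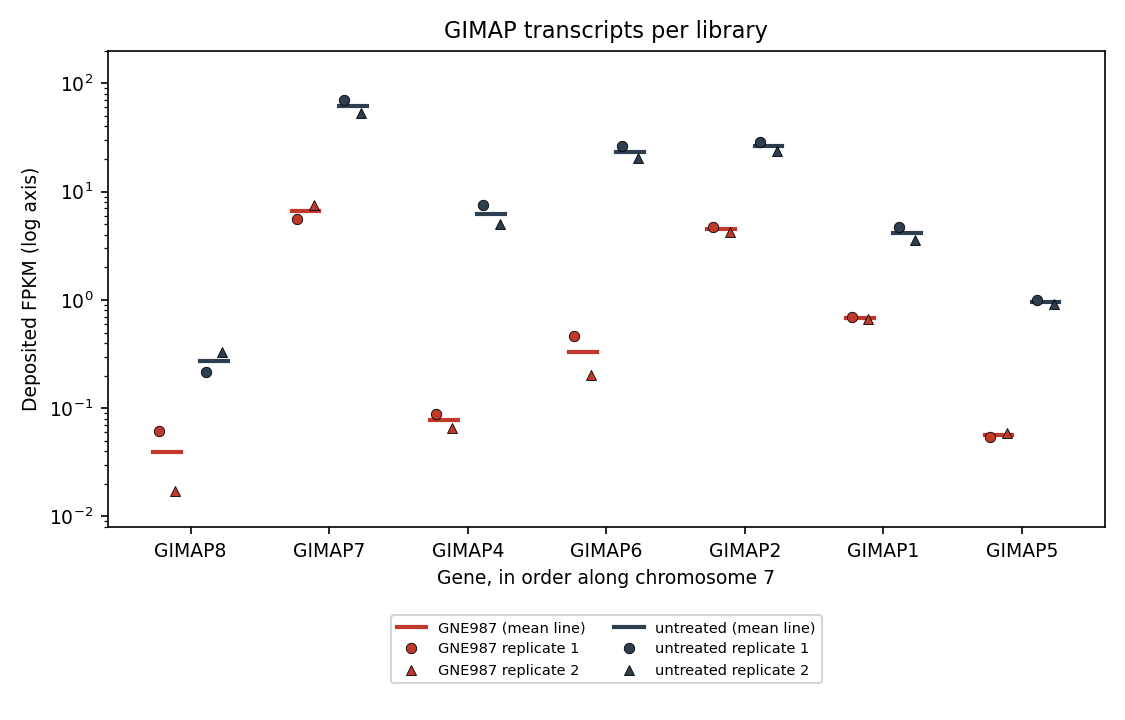
Deposited FPKM of each GIMAP gene on a log axis, with GNE987 libraries in red left of untreated libraries in dark blue; circles are replicate 1, triangles replicate 2 and lines the group means. All 7 genes have both treated values below both untreated ones, from GIMAP8 near the floor to GIMAP7 at 69.9 FPKM in untreated replicate 1.

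Levels were compared between members per length, as deposited FPKM (counts scaled by exonic length and by 1 size factor per library). GIMAP7 averaged 6.55 ± 1.39 FPKM with GNE987 and 61.5 ± 11.9 FPKM without (SD, n = 2), the highest of the family in both groups. In treated cells GIMAP2 came next at 4.48 ± 0.341 FPKM, then GIMAP1 at 0.68 ± 0.0202, GIMAP6 at 0.332 ± 0.185, GIMAP4 at 0.077 ± 0.0164, GIMAP5 at 0.0566 ± 0.0041 and GIMAP8 at 0.0395 ± 0.0316 FPKM. GIMAP5 and GIMAP8 overlapped in that order; the other neighbours did not. In untreated cells the order after GIMAP7 was GIMAP2 at 26.2 ± 3.66, GIMAP6 at 23.4 ± 4.01, GIMAP4 at 6.28 ± 1.78, GIMAP1 at 4.17 ± 0.799, GIMAP5 at 0.958 ± 0.0581 and GIMAP8 at 0.274 ± 0.0836 FPKM. There GIMAP2 and GIMAP6 overlapped. FPKM was computed over all annotated exonic bases of a gene, which for GIMAP5 include stretches assigned to other genes too, so its level per length depends on that annotation. GIMAP1 stood below GIMAP6 and GIMAP4 in untreated cells and above both in treated cells.

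The make-up of the GIMAP counts differed accordingly. GIMAP6 supplied 7.93% (95% Wilson interval 5.54% to 11.2%) and 3.44% (1.93% to 6.05%) of the family's counts in the GNE987 libraries, against 34.5% (33.4% to 35.7%) and 34.7% (33.3% to 36.0%) in the untreated ones. GIMAP2 supplied 43.3% (38.3% to 48.6%) and 38.8% (33.6% to 44.2%) with GNE987, against 20.3% (19.4% to 21.3%) and 21.4% (20.2% to 22.6%) without. GIMAP7 made up 30.6% and 41.2% with GNE987, and 29.5% and 28.7% without. These intervals cover counting error only, since reads carry no molecular identifiers. The untreated libraries had nearly the same make-up although their family sums differed, with that of replicate 2 nearer to the GNE987 libraries.

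**Figure D2:**
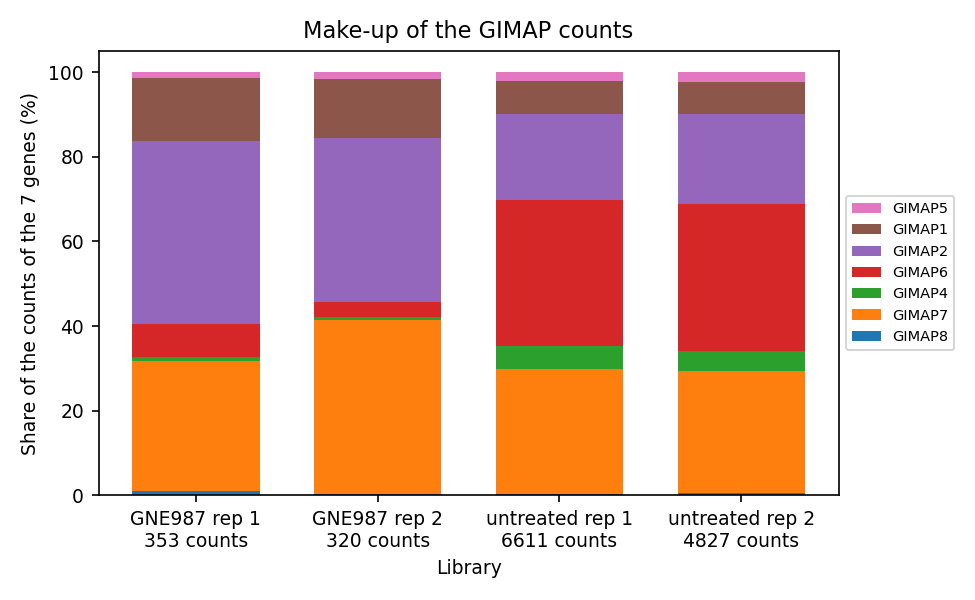
Share of each gene in the counts of the 7 GIMAP genes (percent, stacked bars), for the GNE987 libraries and then the untreated libraries, with the family's total count under each bar. The GIMAP6 share is 7.93% and 3.44% in the GNE987 bars and 34.5% and 34.7% in the untreated bars.

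The 3 genes that share the 14-letter run, GIMAP7, GIMAP2 and GIMAP1, had log2 fold changes of -3.23, -2.55 and -2.61. GIMAP4, GIMAP6 and GIMAP5, without it, were at -6.28, -6.11 and -4.06, and GIMAP8, also without it, at -2.71 on few counts. This grouping was noticed after the values were seen, and no test was made of it.

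Genes around the cluster were looked at next, chosen by position alone. Of 53 further genes with a row within 1 Mb of the cluster, 33 were tested; 11 rose and 19 fell with GNE987, against 34.4% and 37.2% of all genes tested. Within 250 kb there were 10 tested genes, of which 0 rose and 8 fell (median log2 fold change -2.67). Beyond 250 kb 11 rose and 11 fell of 23 (median -0.06). The 250 kb limit had been set for naming genes, and dividing the counts at it was not planned. The difference between near and far genes was not tested. The 8 near genes are not all separate signals: ZBED6CL lies inside LRRC61, which overlaps ACTR3C, and the antisense gene AC005586.1 overlaps REPIN1. Whether counting used strand is not given in the sources used here, so reads of overlapping genes on opposite strands may not be told apart.

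On the side of GIMAP8, LRRC61, a leucine-rich repeat gene 112.5 kb away, fell to 2.69 and 2.54 CPM with GNE987, against 48.4 and 38.5 CPM without (log2 fold change -4.05 ± 0.19, edgeR adjusted p = 0.000292). AC073111.5, which lies 38.2 kb from GIMAP8, fell to 2.43 and 4.2 CPM with GNE987, against 26.5 and 19.8 CPM without (-2.81 ± 0.31, adjusted p = 0.00133). ZBED6CL fell with a log2 fold change of -2.61 ± 0.39 (adjusted p = 0.00311) and AC005586.1 with -2.91 ± 0.57 (adjusted p = 0.00687). The zinc finger gene REPIN1 fell less, at -1.28 ± 0.12 (adjusted p = 0.000825). ACTR3C fell by 1.31 ± 0.43 (adjusted p = 0.0365), a call lost with upper-quartile scaling, with DESeq2, with the block and without either GNE987 library, at adjusted p from 0.0594 to 0.206. AC005586.1 did not pass without GNE987 replicate 1 (adjusted p = 0.0656). ZNF775, 52.0 kb away, had 16.9 and 16.4 CPM with GNE987 and 19.6 and 22 CPM without (adjusted p = 0.0862). It passed as lower with library size alone, with no filter on low counts and without untreated replicate 1 (adjusted p from 0.00976 to 0.0468).

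On the side of GIMAP5 the first tested gene was KCNH2, a potassium channel gene 194.9 kb away. It fell to 4.73 and 4.78 CPM with GNE987, against 66.3 and 58.0 CPM without (log2 fold change -3.71 ± 0.15, adjusted p = 0.000292). NOS3, the endothelial nitric oxide synthase, fell to 2.95 and 5.07 CPM with GNE987, against 29.7 and 23.7 CPM without (-2.74 ± 0.29, adjusted p = 0.00112). TMEM176B, TMEM176A and AOC1, between GIMAP5 and KCNH2, had at most 0.507 CPM in any library and were not tested, and neither was LINC00996 beside GIMAP8, at 0 and 0 CPM with GNE987 and 0.494 and 0.0494 CPM without. The same held for AC005586.2 and RARRES2 on the side of GIMAP8, and for STRADBP1 and BET1P1, which lie in or overlap the cluster. Back on the side of GIMAP8, the antisense gene AC073111.1, 66.7 kb away, overlaps ZNF775. It had 0.591 and 1.09 CPM with GNE987 and 0.0898 and 0.642 CPM without (edgeR adjusted p = 0.26). Without untreated replicate 2 its log2 fold change was 3.16. Farther out on either side the largest rises were those of AC004877.1 at 2.87 ± 0.80 and the ion channel gene ASIC3 at 2.56 ± 0.45. The largest falls were those of ABCF2 at -2.26 ± 0.17 and KRBA1 at -2.22 ± 0.19. Their edgeR adjusted p were 0.0226, 0.00482, 0.000448 and 0.000566 in that order. AC004877.1 did not pass without GNE987 replicate 1 or 2 (adjusted p = 0.101 and 0.133).

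Over the whole 1 Mb, 5 genes rose and 14 fell without GNE987 replicate 1, and 4 and 15 without GNE987 replicate 2; within 250 kb 6 and 7 genes were called in these settings, each of them lower. With library size alone, which moves the median of all genes by -0.37 on the log2 scale, 7 rose and 21 fell within 1 Mb. Of all genes tested, 13.0% were called higher without GNE987 replicate 1, 13.5% without GNE987 replicate 2, 25.8% with library size alone, 18.9% with no filter, 28.5% with the block and 41.1% without untreated replicate 2; the shares called lower stand with GIMAP8 above.

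**Figure D3:**
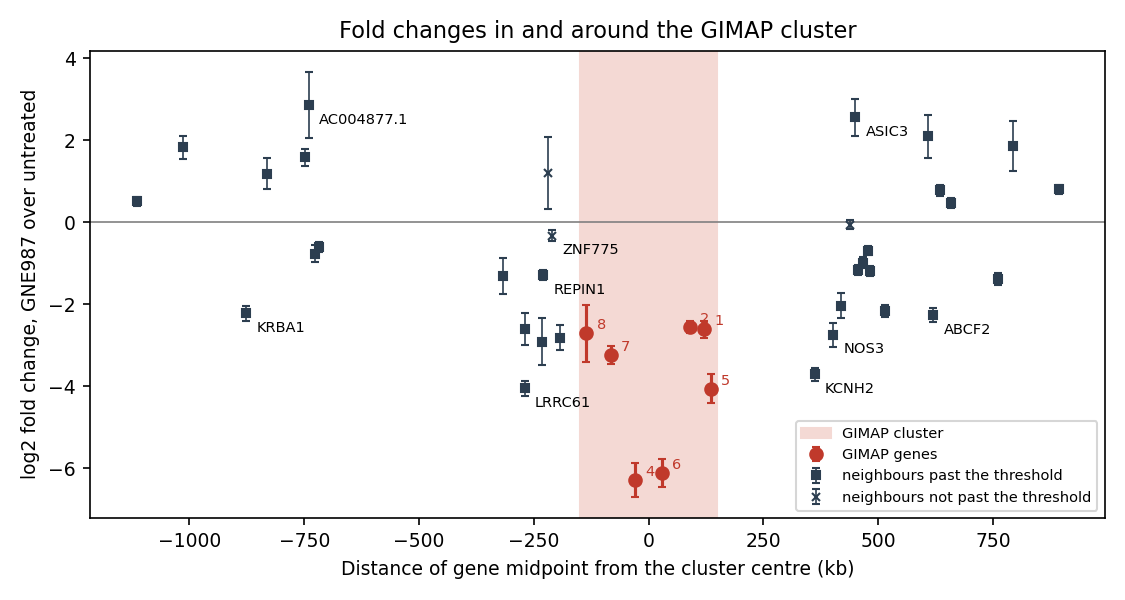
Log2 fold change, GNE987 over untreated, against the distance of each gene's midpoint from the cluster centre (kb), with SE bars; red points are the GIMAP genes (labelled by number), squares are tested neighbours past the threshold and crosses the other tested neighbours, and the shaded band is the cluster. GIMAP4 and GIMAP6 lie lowest, LRRC61 at -4.05 and KCNH2 at -3.71 flank the cluster, and the rises that passed the threshold lie farther out.

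Gene lists that bear on the family were set beside it; of all genes tested 37.2% were called lower and 34.4% higher, and the median log2 fold change was -0.03. Of 12 tested T-ALL core factors, the kind described at the GIMAP enhancer, 8 fell and 2 rose (median log2 fold change -1.40). RUNX1 at -0.09 ± 0.12 and NOTCH1 at 0.26 ± 0.12, named with their values known, were not called. LYL1, a relative of TAL1, fell to 0.657 and 0.725 CPM with GNE987, against 34.5 and 30.2 CPM without (-5.54 ± 0.21, adjusted p = 0.000292). MYB, a factor of immature blood cells, was at -3.03 ± 0.16, TCF12, an E protein that pairs with TAL1, at -3.07 ± 0.21 and TAL1 itself at -1.77 ± 0.13 (adjusted p = 0.000295, 0.000372 and 0.000426). The 2 that rose, GATA3 at 0.54 ± 0.13 and LDB1 at 0.37 ± 0.11 (adjusted p = 0.0127 and 0.0312), are named with their values known. These rises were lost with library size alone, without the filter on low counts and without either GNE987 library, and the block left 1.

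Among 13 tested genes for reported partners of GIMAP proteins, 7 were called higher and 3 lower (median 0.51), against 34.4% and 37.2% of all genes tested. BAX, which promotes cell death and binds Gimap4 in mice, fell to 21.9 and 24.6 CPM with GNE987, against 76.0 and 75.3 CPM without (-1.70 ± 0.12, adjusted p = 0.000383). BCL2L1, a survival protein of the same family, fell by 1.71 ± 0.14 (adjusted p = 0.000489). GSK3B, a kinase that Gimap5 restrains in mice, rose to 196 and 182 CPM, against 45.1 and 65.5 CPM (1.77 ± 0.20, adjusted p = 0.00147), and its target CTNNB1, beta-catenin, rose by 1.60 ± 0.21 (adjusted p = 0.00213). Among the autophagy genes of this list, GABARAPL1 fell by 1.87 ± 0.28 and MAP1LC3B rose by 2.45 ± 0.41 (edgeR adjusted p = 0.00317 and 0.00439). GABARAP, at -1.22 ± 0.54, was not called (edgeR adjusted p = 0.0873). These genes are named outside the rule, with their values already known. So is GABARAPL2, the GIMAP6 partner. It rose to 87.7 and 92.5 CPM with GNE987, against 59.0 and 67.5 CPM without (0.51 ± 0.12, adjusted p = 0.0139), and did not pass with library size alone, with no filter on low counts or without either GNE987 library (adjusted p from 0.0688 to 0.367). Without GNE987 replicate 2 the partner list had 4 higher and 4 lower, and with library size alone 6 higher and 5 lower, where 13.5% and 25.6%, and 25.8% and 45.0%, of all genes tested were higher and lower.

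Genes of resting T cells, a state in which GIMAP genes are highly transcribed, were called in 14 of 14 cases, 9 lower and 5 higher (median -1.29), against 37.2% and 34.4% of all genes tested. TCF7, a T-cell transcription factor, was at -2.15 ± 0.13, TSC1, which curbs mTOR signalling, at -1.82 ± 0.18, and S1PR1, the receptor for exit from lymphoid tissue, at -3.52 ± 0.38 (adjusted p = 0.000309, 0.000848 and 0.00116). The 5 that rose, named with their values known, were SLFN5 at 2.59 ± 0.39, TOB1 at 2.29 ± 0.45, BTG1 at 1.72 ± 0.24, BTG2 at 1.71 ± 0.34 and FOXO1 at 1.37 ± 0.27 (adjusted p from 0.00241 to 0.00739). TOB1, BTG1 and BTG2 belong to 1 family of antiproliferative proteins, and FOXO1 is a transcription factor of resting T cells. Without either GNE987 library in turn, 6 were lower and 2 higher.

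Genes of other GTPase families moved in both directions. The list headed interferon-inducible GTPases holds genes named GBP, MX or IRG, entered by name and not by any measured response to interferon. Of 5 tested, 2 fell and 1 rose (median -0.18), against 37.2% and 34.4% of all genes tested. The 2 that fell were GBP1 at -5.19 ± 0.39 and GBP3 at -4.17 ± 0.84 (edgeR adjusted p = 0.000432 and 0.00775). IRGQ rose, at 2.06 ± 0.35, and IRGM, at 0.79 ± 0.40, was not called (edgeR adjusted p = 0.0046 and 0.129). The median of these 5 was -0.81 without GNE987 replicate 1, -0.55 with library size alone, 0.01 with upper-quartile scaling and 0.24 without GNE987 replicate 2, and over all 9 with a row it was 0.09 with no filter.

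**Figure D4:**
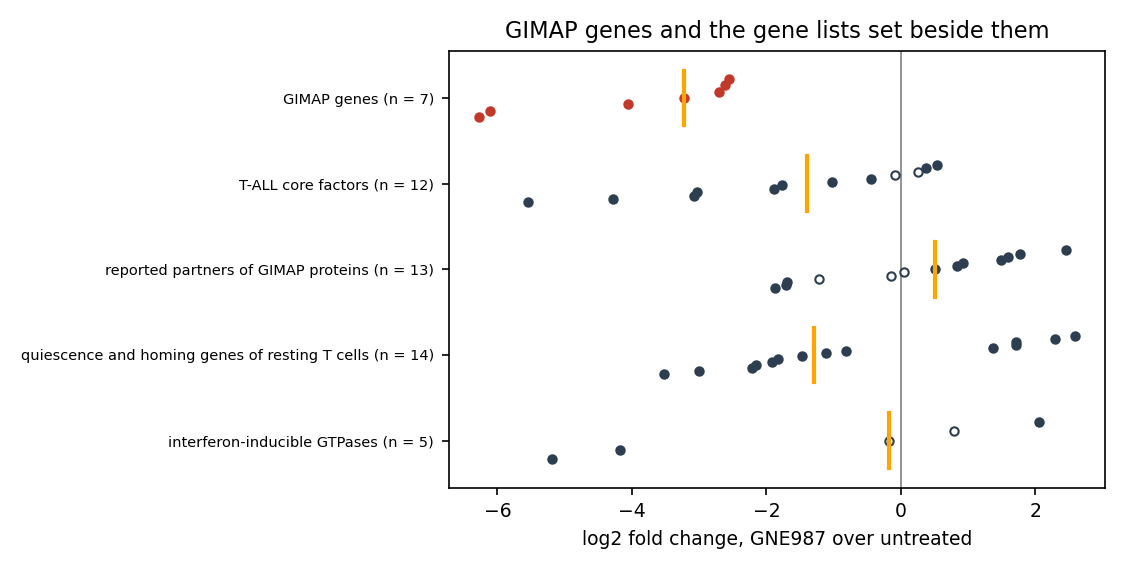
Log2 fold change, GNE987 over untreated, of each tested gene of the GIMAP family (red) and of 4 lists set beside it (dark blue); filled points passed the threshold, open points did not, orange bars are medians and heights within a row only separate the points. The GIMAP points lie between -6.28 and -2.55, and the medians of the lists between -1.40 and 0.51.

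The genes whose 4 values were most like the family's were found by the distance between centred log2 CPM profiles, over 8787 tested genes outside the family with a mean of at least 10 CPM. The median profile of the members was -1.82 and -1.64 in the GNE987 libraries and 1.79 and 1.43 in the untreated ones, around a mean of 0 per gene. The nearest were HDDC2 at a distance of 0.12, CYREN, EXOSC5 and UCK2 at 0.13, and NAA20 and TMEM101 at 0.15. HDDC2 had 5.84 and 6.52 CPM with GNE987, against 71.8 and 56.4 CPM without. EXOSC5, a subunit of the RNA exosome, had 8.99 and 10.2 CPM with GNE987, against 106 and 85.4 CPM without, and UCK2, a uridine-cytidine kinase, 15 and 16.2 CPM, against 176 and 140 CPM. With 4 libraries in 2 groups such likeness amounts to a similar fold change. Distances of the members themselves to their median profile were from 0.24 for GIMAP7 to 2.92 for GIMAP6, larger than those of these 6 genes.

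In the authors' deposited table GIMAP6 was listed with a log2 fold change of -6.12, GIMAP4 with -6.34 and GIMAP8 with -2.77. An adjusted p under 0.05 was listed there for 6 of the 7 members, all but GIMAP8, and as lower for 19.6% of the 26733 genes in the authors' deposited table.

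**Figure D5:**
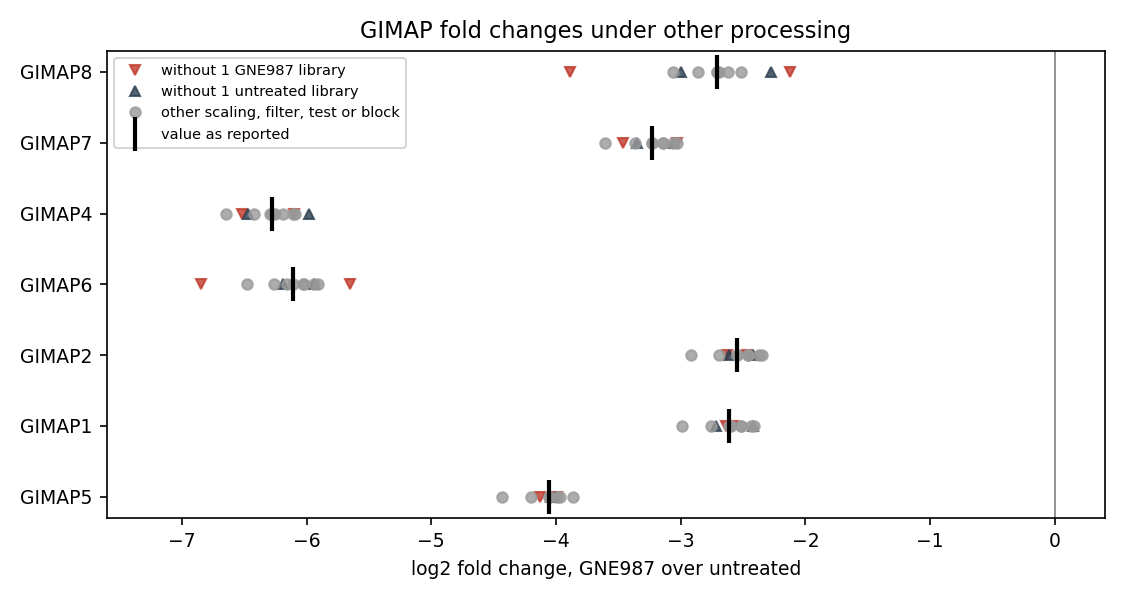
Log2 fold change of each GIMAP gene, GNE987 over untreated, as reported (black bar) and under each alternative; red triangles leave out 1 GNE987 library, dark blue triangles 1 untreated library, and grey points change the scaling, filter, test or block. The widest ranges are those of GIMAP8, from -3.89 to -2.12, and GIMAP6, from -6.85 to -5.65, and no value reaches 0.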

How the data were processed

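Polyadenylated RNA of 2 GNE987 and 2 untreated Jurkat libraries was sequenced; per the labels' protocols RNA was taken with TRIzol and libraries were made with an Illumina TruSeq kit. HISAT2 2.2.0 and build hg38 appear in the submitters' processing notes. How reads were counted (tool, annotation, strand) is not given in the sources used here. In the deposited table stand whole-number counts per gene and library, the authors' raw values, per the file headers. Beside them the authors deposited a normalized signal, which times 1 size factor per library gave back the count within 0.01 for 100.0% of values. The deposited FPKM values were proportional to that signal (within 1%), and for the members the length behind them equalled the union of GENCODE release 29 exons. The authors also deposited a log2 fold change with a p-value, raw and adjusted, whose test is not named in the labels; these were only described.

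All 26733 identifiers matched GENCODE release 29; 20 names turned into dates were restored. Genes were filtered with filterByExpr (minimum count 10, minimum total 15; 15910 kept), scaled by TMM and tested with edgeR 4.0.16 (quasi-likelihood, R 4.3.3), Benjamini-Hochberg over all genes tested, threshold 0.05; SE is the log2 fold change over the square root of F. All CPM carry the TMM scaling. Alternatives were RLE, upper-quartile or library-size scaling, no filter, at least 10 CPM in 2 libraries, DESeq2 1.42.0, robust estimation, a block for the replicate number, and leaving out 1 library at a time. Same-numbered libraries did not deviate together (r = -0.01 across genes).

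Members and lists were chosen with earlier results of these data known. Named genes are the members, neighbours within 250 kb, the 2 largest rises and 2 largest falls beyond, up to 4 genes of smallest p per list (1 list and 1 gene are not reported here), and the 6 genes most like the family (prior count 2). Further marker lists (B, natural killer, erythroid, epithelial and fibroblast cells) were summed. With GNE987 the sums were 97.8 and 107, 3.15 and 2.54, 7.48 and 7.46, 1.18 and 1.52, and 9.19 and 9.06 CPM. In untreated cells they were 41.6 and 51.6, 1.26 and 1.38, 0.449 and 0.839, 6.51 and 5.53, and 2.24 and 2.52 CPM. Nearly all of the B-cell sum was CD79A in each library.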

Additional observations from a re-analysis of the deposited data

How the results depend on the processing

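All 7 GIMAP genes kept a negative log2 fold change under each of the alternatives run. Members called lower numbered 7 with RLE, upper-quartile or library-size scaling, without the filter, with robust estimation and without either untreated library. They numbered 6 with DESeq2, with the replicate block and without either GNE987 library, and 5 of 5 tested at 10 CPM; over these settings 23.6% to 45.0% of all genes tested were called lower. The missing call was that of GIMAP8 with DESeq2, the block and either GNE987 library left out; these counts describe members chosen on the same contrast and test nothing. The family's median of -3.23 was -3.61 with library size alone, where the median of all genes moved by -0.37, and from -3.89 to -3.05 with 1 library left out. The -3.89, without GNE987 replicate 1, is the value of GIMAP8, which there rests on 1 count with GNE987. Genes called over all genes tested numbered 11387, and from 6070 to 12921 with 1 library left out; neighbours within 1 Mb numbered 30, and from 19 to 31; members of the 5 lists numbered 46, and from 30 to 49. With 1 library left in a group, that library is assumed to vary as the other group's pair does. With the replicate block 9801 genes were called, 6 of 7 members, 26 neighbours and 43 list members. Whether the numbers pair the libraries is not stated. The check of same-numbered libraries has 1 deviation per group and cannot exclude it. With 2 per group each fold change rests on few libraries. The depth limits GIMAP8, GIMAP5 and GIMAP4, with 1 to 5 counts in each treated library.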
